A study of Mus musculus with 12 samples.

Results

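RNA of eWAT from flox mice given MTX was compared with that of flox mice given vehicle, with 3 libraries in each group. These 6 libraries are those of the 12 in the series that the sample labels name as flox, and no measured value entered their choice. The flox mice (miR-181a2b2flox/flox) carry a floxed miR-181a2b2 locus and no Cre, so the locus is intact. Per the study's methods the mice were males and the fat was eWAT, while the labels say white adipose tissue. All mice were on the HFD (60% fat) for 12 weeks and were injected into the peritoneum each week with vehicle or with MTX at 1 mg/kg. The other 6 libraries came from KO mice (miR-181a2b2-/-), which lack the locus in the whole body, with 3 given vehicle and 3 given MTX. They share the estimate of the spread and are given beside the flox values where the responses differ. The vehicle libraries carry the replicate numbers 1, 3 and 4 and the MTX libraries the numbers 1, 2 and 4, and values are listed in that order. The labels give no litter, age or batch, and do not say that each library is 1 mouse, so the p-values measure the spread between libraries, pooled over all 12. Within groups, the chi-square per degree of freedom of library pairs was 88.7 to 220 in flox mice and 14.1 to 90.1 in KO mice. The flox libraries were thus mostly less alike than the KO libraries that share the estimate. Fitted alone, the flox libraries gave 267 genes called higher, against 1513 in the pooled fit.

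MTX is an antifolate that limits nucleotide synthesis, and at low weekly doses it is used against inflammation, in part through the release of adenosine. The epididymal fat pad of male mice is attached to the epididymis, the coiled duct in which sperm mature, and lies beside the testis. The duct secretes cysteine-rich proteins, lipocalins and beta-defensins into its lumen, while protamines and transition proteins, which pack DNA in sperm heads, are made in spermatids. Fat itself holds adipocytes, vessels, a cover of mesothelium, and in obesity many macrophages and lymphocytes. Cells that sense type I or type II interferon switch on a shared set of antiviral and GTPase genes, whose promoters often carry the interferon-stimulated response element.

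That element is visible in the promoters of interferon-stimulated genes that rose with MTX in all 3 treated libraries. The core of the element, GAAANNGAA, was searched on both strands in the 250 bases before the RefSeq start (GRCm38.p6), where it can overlap itself. It was chosen after the values of the genes were seen. Of the 36 genes in the interferon list, 27 had a promoter to search, and 16 of those (59.3%) held the core in at least 1 promoter. Of all 32851 promoters 7.13% held it, a share per promoter and not per gene. The list was made of genes known to answer interferon, so its share describes the list and not MTX. Among the 16 genes, 13 were called higher (adjusted p below 0.1 and at least 1.5-fold), and among the 11 without it 4 were. Of all genes tested 8.09% were called higher. Since the core was chosen with these values seen, the split describes these genes and is no test of the core. The same core was in 0 of the 12 macrophage marker genes with a promoter, of which 10 were called higher. The promoters of Isg15 (chr4:156200819-156201068, minus strand), Ifit1 (chr19:34640639-34640888, plus strand), Oas1a (chr5:120907526-120907775, minus strand) and Gbp2 (chr3:142620413-142620662, plus strand) are shown because they hold the core and their genes rose. Capitals mark the core on either strand, and the match says nothing of binding.
Isg15: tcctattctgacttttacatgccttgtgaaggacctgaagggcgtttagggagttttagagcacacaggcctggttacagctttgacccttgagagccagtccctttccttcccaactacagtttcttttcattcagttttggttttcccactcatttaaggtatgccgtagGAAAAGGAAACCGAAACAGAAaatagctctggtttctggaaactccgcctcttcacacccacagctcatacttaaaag
Ifit1: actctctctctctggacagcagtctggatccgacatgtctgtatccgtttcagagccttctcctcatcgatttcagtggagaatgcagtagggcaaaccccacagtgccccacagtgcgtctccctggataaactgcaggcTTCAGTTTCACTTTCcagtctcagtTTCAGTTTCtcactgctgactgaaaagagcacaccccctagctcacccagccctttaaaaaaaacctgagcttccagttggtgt
Oas1a: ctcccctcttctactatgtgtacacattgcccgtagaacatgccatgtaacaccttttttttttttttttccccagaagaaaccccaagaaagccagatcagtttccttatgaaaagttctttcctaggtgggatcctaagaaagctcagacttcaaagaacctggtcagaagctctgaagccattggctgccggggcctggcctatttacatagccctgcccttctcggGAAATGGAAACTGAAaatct
Gbp2: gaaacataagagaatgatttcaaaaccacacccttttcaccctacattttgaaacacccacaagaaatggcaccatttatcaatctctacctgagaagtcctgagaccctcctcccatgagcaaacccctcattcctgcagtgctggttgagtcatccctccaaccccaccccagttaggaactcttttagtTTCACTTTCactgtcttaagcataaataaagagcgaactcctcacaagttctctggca

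MTX-treated flox eWAT differed from vehicle-treated flox eWAT in a large share of its genes, and more of them were lower than higher. Of 18702 genes tested, 3015 (16.1%) were called lower and 1513 (8.09%) higher, and the median log2 fold change over all of them was 0.05. Calls needed a p below 0.1 after Benjamini-Hochberg adjustment, from edgeR's quasi-likelihood test, and a fold change of at least 1.5. In 14.3% of the genes tested the call was lower and no MTX library overlapped a vehicle library, and in 5.1% it was higher without overlap. The libraries held 21204019 to 23491634 counts in the vehicle group and 19495310 to 23976469 in the MTX group. Levels below are CPM scaled by TMM (trimmed mean of M values) factors, where 3 counts, the most that a count of 0 allows, are worth 0.118 to 0.188 CPM. That limit covers counting error only. Sums over a gene list are CPM of the whole library, without the factors. In bulk tissue fewer cells of a type and less RNA per cell cannot be told apart. With library size as the only scaling the median of all genes was -0.15, and 17.5% of the called genes were higher against 33.4% in the TMM fit.

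Vehicle replicate 3 stood apart from the other vehicle libraries, and a share of the calls rests on it. Its duct and germ cell lists summed to 39700 CPM, against 14200 and 5870 in vehicle replicates 1 and 4, and its adipose lists to 76800, against 148000 and 137000. Without this library 1832 genes were called lower and 387 higher, of which 1804 and 369 had the same call with it. Vehicle replicate 1 also bore on the rises, with 946 genes called higher in its absence. Among the genes called lower, 79.3% had their highest vehicle level in replicate 3, compared with 42.2% of all genes tested and 5.62% of the genes called higher. Values of each vehicle library are therefore listed below, and most list counts are also given without this library.

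Transcripts of the epididymal duct were abundant with vehicle and lower with MTX. Of 217 duct and germ cell genes tested, 181 were called lower (83.4%, against 16.1% of all genes) and 1 higher, with a median log2 fold change of -4.42, or -4.28 with the 7 genes at 0 counts in every MTX library set to the limit of 3 counts per library. Most of these genes could pass the filter on low counts only through the vehicle libraries, so this count describes them and is no test of the list. Without vehicle replicate 3, 127 were called lower and 1 higher, with the secreted epididymal proteins at 6 lower and 1 higher and the beta-defensins at 3 lower. The 50 genes of secreted epididymal proteins summed to 9550, 28700 and 3240 CPM in the vehicle libraries. In the MTX libraries the same sum was 925, 12 and 35.2, and in the 6 KO libraries of either treatment it lay between 5.7 and 37.3. MTX replicate 1 thus held far more of these transcripts than the other MTX libraries, but stayed below every vehicle library. The two-sided p of an exact permutation test was 0.1, the smallest that 3 against 3 allows.

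**Figure D1:**
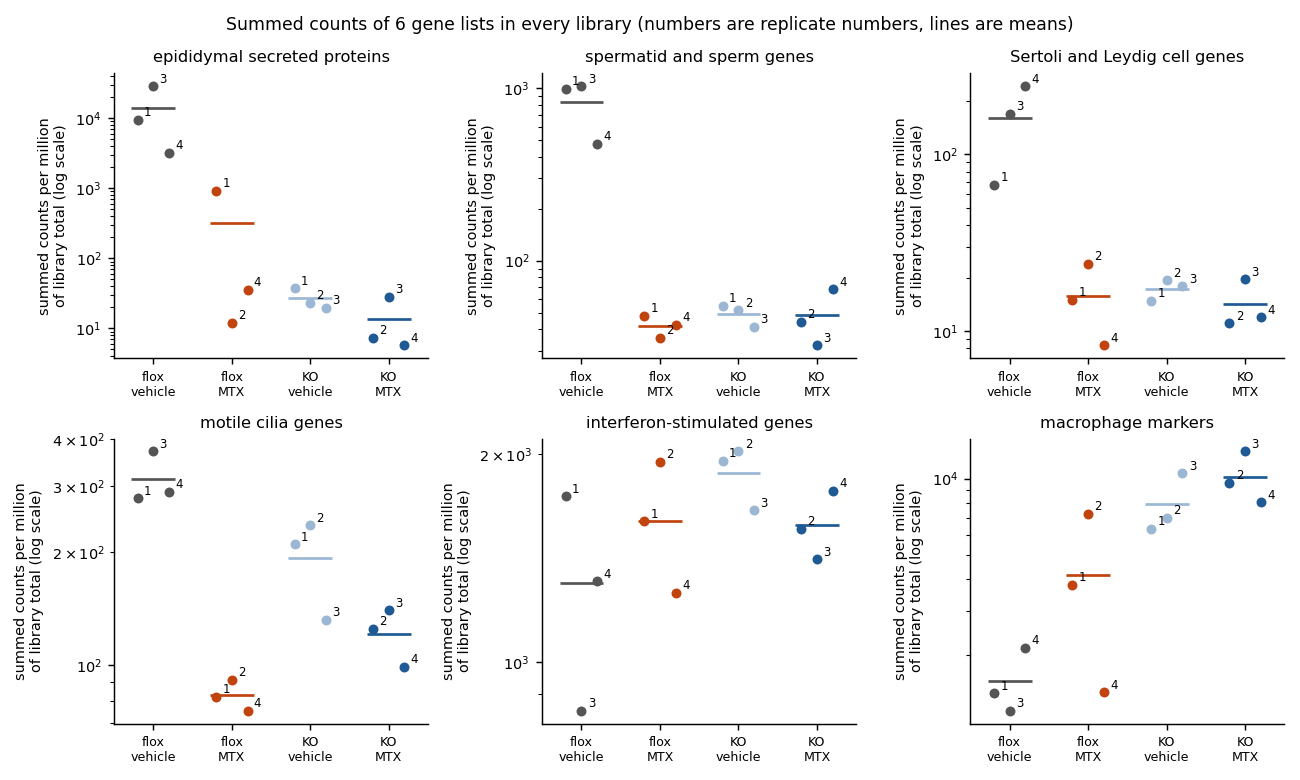
Summed levels of 6 gene lists, in CPM (log scale), in all 12 libraries, with a point for each library, its replicate number, and a line at the group mean. The epididymal, spermatid and Sertoli and Leydig lists are highest in the 3 flox vehicle libraries, with the epididymal list at 925 CPM in flox MTX replicate 1, while macrophage markers are high in MTX replicates 1 and 2 and in all KO libraries.

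Crisp1, a cysteine-rich protein that coats maturing sperm (ENSMUSG00000025431, chromosome 17, 40293758 to 40319207 of GRCm38), was at 3750, 9200 and 1160 CPM with vehicle and at 400, 3.45 and 9.88 CPM with MTX. The groups did not overlap, but they spread over a wide range (4710 ± 4100 CPM against 138 ± 227 CPM, SD, n = 3). Its log2 fold change was -5.09 ± 1.82 (SE, adjusted p = 0.0722). The call did not hold without vehicle replicate 3 (adjusted p = 0.194), vehicle replicate 1 (0.109), MTX replicate 2 (0.103) or MTX replicate 4 (0.13). Adam7, a sperm surface protein of the epididymis, was at 598, 1610 and 244 CPM with vehicle and at 64.3, 0.5 and 2.5 CPM with MTX (adjusted p = 0.0358, and 0.111 without vehicle replicate 3). The beta-defensins, antimicrobial peptides of the duct lumen, were called lower in 17 of 17 genes tested (100%, against 16.1% of all genes). Defb26 fell from 35.4, 164 and 8.54 CPM to 3.21, 0.0909 and 0.188 CPM, and its call held without each library in turn. Vehicle replicate 3 exceeded replicate 1, which exceeded replicate 4, in each of the 17.

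The vehicle libraries did not hold the same stretch of transcripts. Spint4, a protease inhibitor of the epididymis, was at 693 CPM in vehicle replicate 3 but at 6.47 and 0.462 CPM in replicates 1 and 4. With MTX it was at 0.567, 0 and 0.688 CPM, and without vehicle replicate 3 its adjusted p of 0.0209 became 0.184. Gpx5, a glutathione peroxidase of the epididymis, was at 0, 3.42 and 0 CPM with vehicle and at 0.614, 0.545 and 5.06 CPM with MTX, so it was highest in MTX replicate 4 and was not called (adjusted p = 0.777). Foxi1, a transcription factor of acid-secreting clear cells, was at 11.8, 22.2 and 2.72 CPM with vehicle and at 0.756, 0 and 0 CPM with MTX (adjusted p = 0.018). The epithelial keratins Krt8 and Krt18 fell as well, with Krt8 at 160, 278 and 87.9 CPM against 23.8, 13.9 and 8.19 CPM (adjusted p = 0.00672) and Krt18 at a log2 fold change of -3.56 ± 0.69. Cyp17a1, a steroid hydroxylase, followed the order of the duct genes at 51.2, 130 and 36.8 CPM against 7.46, 0.136 and 0.438 CPM (adjusted p = 0.0128).

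Spermatid transcripts were lower to a similar extent and were more even among the vehicle libraries than those of the duct. Of 53 spermatid and sperm genes tested, 46 were called lower (86.8%, against 16.1% of all genes) and none higher. All 46 were without overlap, and 14.3% of all genes were called lower without overlap. Without vehicle replicate 3, 41 of those tested were called lower. The list summed to 991, 1030 and 476 CPM with vehicle and to 47.9, 35.6 and 42.3 with MTX. Prm1, a protamine (ENSMUSG00000022501, chromosome 16, 10796326 to 10805839), was at 60.1, 55.3 and 24.5 CPM with vehicle and at 0.0945, 0.0909 and 0.125 CPM with MTX, at or under 3 counts in each MTX library. Prm2 was at 269, 117 and 52.1 CPM against 0.283, 0.227 and 0.125 CPM. The transition proteins Tnp1 and Tnp2, which precede the protamines on sperm DNA, were at 17.5 to 31.5 CPM and at 24.5 to 49.3 CPM with vehicle and below 0.14 CPM in each MTX library. All 4 kept their calls without each library in turn, with adjusted p between 0.00185 and 0.00427 in the 12-library fit.

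Earlier germ cells and hormone-making cells of the testis showed another order among the vehicle libraries. Sycp1, which joins paired chromosomes in meiosis, was at 1.61, 3.78 and 8.5 CPM with vehicle and at 0 counts in each MTX library, which is at least 29.8-fold lower against the limit of 3 counts per library. Dmrtb1, a regulator of the entry into meiosis, was at 3.08, 17 and 7.62 CPM and at 0 counts with MTX, at least 59.5-fold lower. Insl3, a hormone of Leydig cells, was at 2.69, 5.86 and 120 CPM with vehicle and at 1.23, 2.59 and 0.5 CPM with MTX (adjusted p = 0.0222). Cyp11a1, which starts steroid synthesis, was at 0.868, 0.905 and 27.7 CPM against 0.709, 0.318 and 0.5 CPM, so that vehicle replicate 4 alone was high, and without it the adjusted p of 0.037 became 0.345. Cyp17a1, in the same list, was lowest in that library among the vehicle libraries, so the genes of these cells did not share 1 order. The list summed to 67.1, 170 and 243 CPM with vehicle and to 15.1, 24 and 8.31 CPM with MTX.

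Genes of motile cilia and of other epithelia were lower with MTX as well. Of 36 motile cilia genes tested, 32 were called lower (88.9%, against 16.1% of all genes). None of the 32 overlapped, and 14.3% of all genes were called lower without overlap. Without vehicle replicate 3, 29 were called lower. Dnaaf1, needed to assemble the dynein arms of cilia, was at 6.94, 22.1 and 12 CPM with vehicle and at 0 counts with MTX, at least 88.2-fold lower. The axonemal dynein Dnah5 was at 5.21, 3.19 and 7.25 CPM against 0.0945, 0 and 0 CPM, and the central pair protein Spag6l at 4.77, 8.42 and 4.25 CPM against 0, 0.0454 and 0 CPM. Tppp3, a tubulin-binding protein named after its values were seen, was called higher at a log2 fold change of 0.59 ± 0.22 (adjusted p = 0.0875). It lost its call without vehicle replicate 1 (0.194), vehicle replicate 3 (0.292), MTX replicate 1 (0.156) or MTX replicate 4 (0.177). The claudin Cldn2 was at 17.1, 12 and 18.1 CPM and then at 0.142, 0.136 and 0 CPM, and Cdhr5, a brush border cadherin, went from 13.1, 6.49 and 9.79 CPM to 0 counts, at least 63.1-fold lower. Cdh16, a cadherin of renal and other epithelia, and Hnf4a, a transcription factor of absorptive epithelia, had log2 fold changes of -7.04 ± 1.38 and -6.78 ± 1.16. In KO mice Cldn2 was at 3.98, 6.39 and 0 CPM with vehicle and at 0.13, 0.0433 and 0.0874 CPM with MTX, and Dnah5 at 2.02, 2.58 and 0 CPM with vehicle and at 0 counts with MTX. Both were thus above 1 CPM in 2 of the 6 KO libraries, KO vehicle replicates 1 and 2.

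The genes were also split by their level in KO mice. Of 321 genes tested that had at most 3 counts in each of the 6 KO libraries, 307 were called lower and none higher, and 282 of the 307 stood in no duct or germ cell list. Without vehicle replicate 3, 237 were called lower. With a limit of 10 counts, 777 of 959 were lower and 6 higher. These genes could pass the filter only through the flox libraries, of either treatment. Genes high in 1 flox group only could pass, so these counts describe the genes and are no test of them. Setting both sets aside left 18189 genes, of which 2552 were called lower and 1512 higher, or 1457 and 379 without vehicle replicate 3. The genes called lower among them had the vehicle order 3, 1, 4 in 64.5% of cases, against 28.1% of all genes and 2.31% of those called higher. That order is the one of the summed duct lists, and whether duct cells carried the RNA of these genes was not tested. When the duct, germ cell and KO-low genes were removed before scaling and testing, 2557 genes were called lower and 1426 higher, and all 1426 were also called higher in the full fit.

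**Figure D2:**
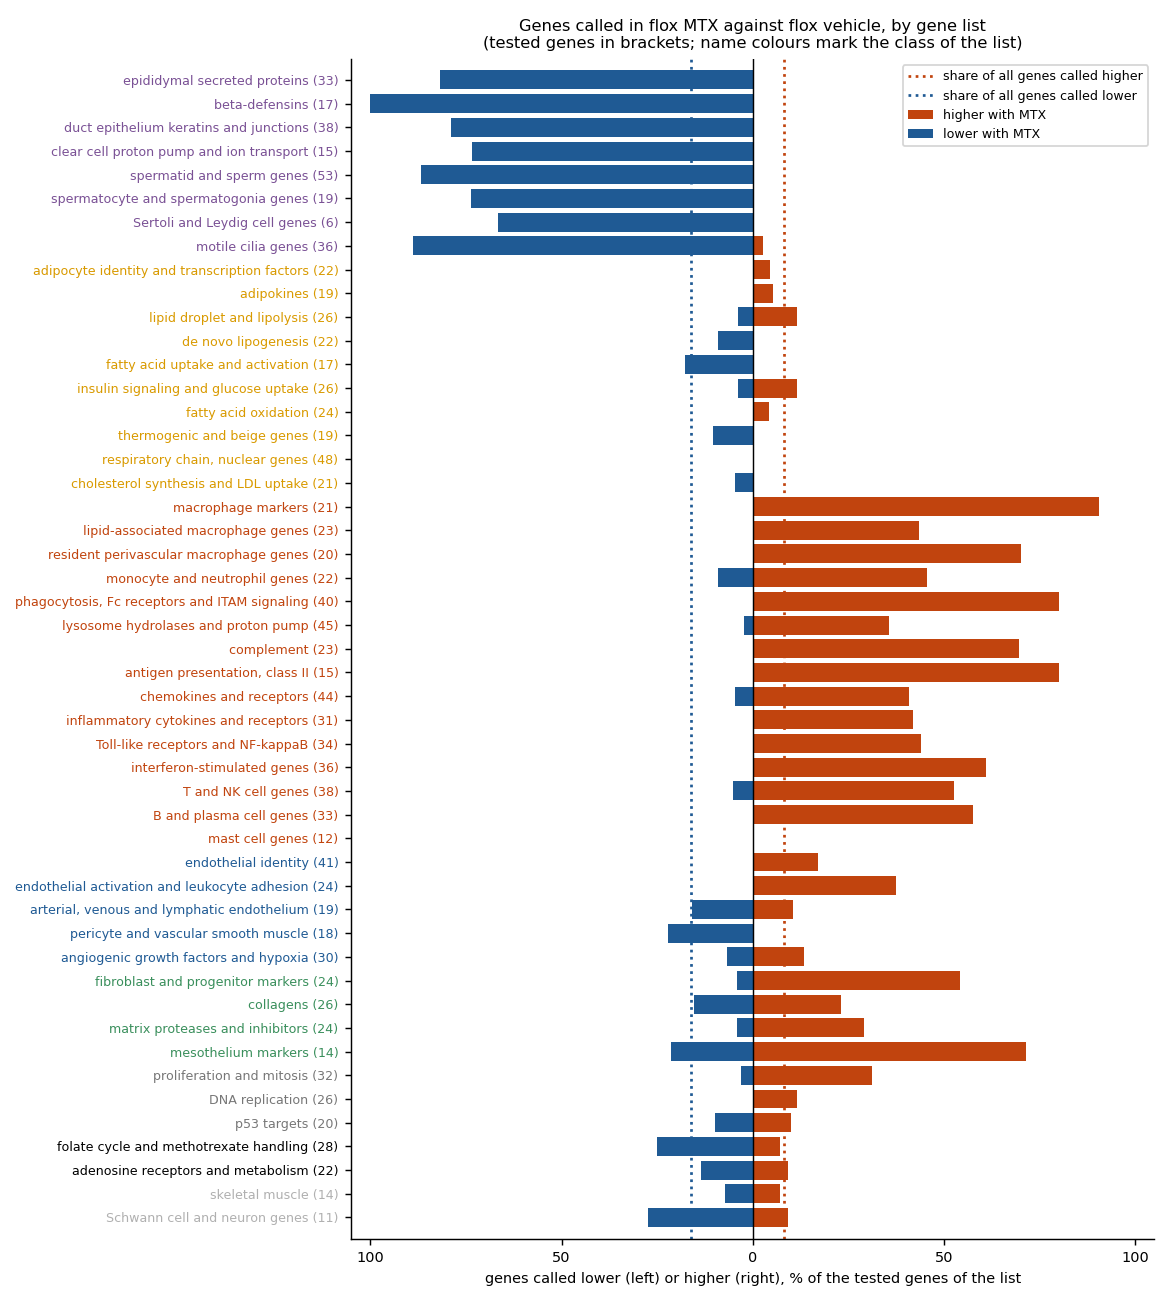
Percent of the tested genes of each list that were called lower (left) or higher (right) in flox MTX against flox vehicle, with dotted lines at the shares among all genes, 16.1% and 8.09%. Lists of duct and germ cells lie to the left, most immune lists to the right, and no adipose list passes 17.6% on either side.

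Few adipose genes were called. Of 239 genes tested in 10 lists of adipocyte identity and metabolism, 9 were called higher (3.77%, against 8.09% of all genes) and 10 lower (4.18%, against 16.1%), with a median log2 fold change of 0.31. Without vehicle replicate 3 the counts were 1 and 8, without vehicle replicate 4 they were 20 and 11, and without MTX replicate 2 they were 47 and 10. None of the 48 nuclear genes of the respiratory chain was called by edgeR, 46 had a fold change above 0, and 15 were called higher without MTX replicate 2. The adipose lists together summed to 148000, 76800 and 137000 CPM with vehicle and to 142000, 93300 and 182000 with MTX, with overlapping ranges (p = 0.6, two-sided exact permutation test).

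Adipoq, the adipokine that marks mature adipocytes (ENSMUSG00000022878, chromosome 16, 23146536 to 23158028), was at 3220, 1080 and 2190 CPM with vehicle and at 2210, 1860 and 3620 CPM with MTX (log2 fold change 0.24 ± 0.51, adjusted p = 0.764). Lep, the satiety hormone leptin, was at 1300, 2110 and 4210 CPM against 5200, 2590 and 4260 CPM (adjusted p = 0.385), and Retn, resistin, at 1460, 504 and 1090 CPM against 692, 628 and 2740 CPM. The ranges overlapped for all 3. Slc2a4, the insulin-responsive glucose transporter, was at 156, 67.6 and 116 CPM with vehicle and at 83.1, 85 and 203 CPM with MTX. Plin1, which coats the lipid droplet, and Pparg, the master regulator of adipocytes, had log2 fold changes of 0.2 ± 0.42 and 0.22 ± 0.31. For each of these genes but Lep the SE exceeded the change and the sign turned under some settings.

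Fasn, fatty acid synthase, varied more among the treated libraries than between the groups. It was at 1480, 1520 and 2180 CPM with vehicle and at 3070, 790 and 8390 CPM with MTX, so that MTX replicates 2 and 4 were the lowest and the highest of the 6 (adjusted p = 0.194). Among the few genes called higher, Tsc22d3, a leucine zipper protein induced by glucocorticoids, was at 162, 157 and 211 CPM with vehicle and at 288, 547 and 500 CPM with MTX. Its groups did not overlap, and the call held without each flox library in turn (log2 fold change 1.33 ± 0.24, adjusted p = 0.00618). Plin2, a lipid droplet coat also found in foamy macrophages, was at 379, 245 and 632 CPM against 1430, 818 and 679 CPM (adjusted p = 0.0452), and lost its call without vehicle replicate 3 (0.16), vehicle replicate 1 (0.121) or MTX replicate 1 (0.153). Fstl1, a secreted glycoprotein, had an adjusted p of 0.0278, which became 0.109 without vehicle replicate 3.

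Of the 10 adipose genes called lower, 8 had the order of the duct genes among the vehicle libraries, against 63.3% of all genes called lower. Fads2, the delta-6 desaturase of polyunsaturated fatty acids, was at 78.8, 183 and 41 CPM with vehicle and at 15.3, 9.59 and 10.7 CPM with MTX (log2 fold change -3.09 ± 0.45, adjusted p = 0.0042). In the KO libraries it lay between 6.28 and 8.46 CPM under either treatment. Acsl4, which activates arachidonic acid, was at 82.9, 141 and 57.8 CPM against 43.7, 44.5 and 47 CPM (adjusted p = 0.0157). Gk, glycerol kinase, fell from 92.2, 229 and 58.5 CPM to 45.5, 10.3 and 14.4 CPM (adjusted p = 0.0171). Slc27a2, a fatty acid transporter of the liver and kidney, was at 6.07, 8.93 and 5.4 CPM with vehicle and at 0.0945, 0 and 0 CPM with MTX. These 4 calls held without each library in turn, and the part of the duct in them was not tested.

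**Figure D3:**
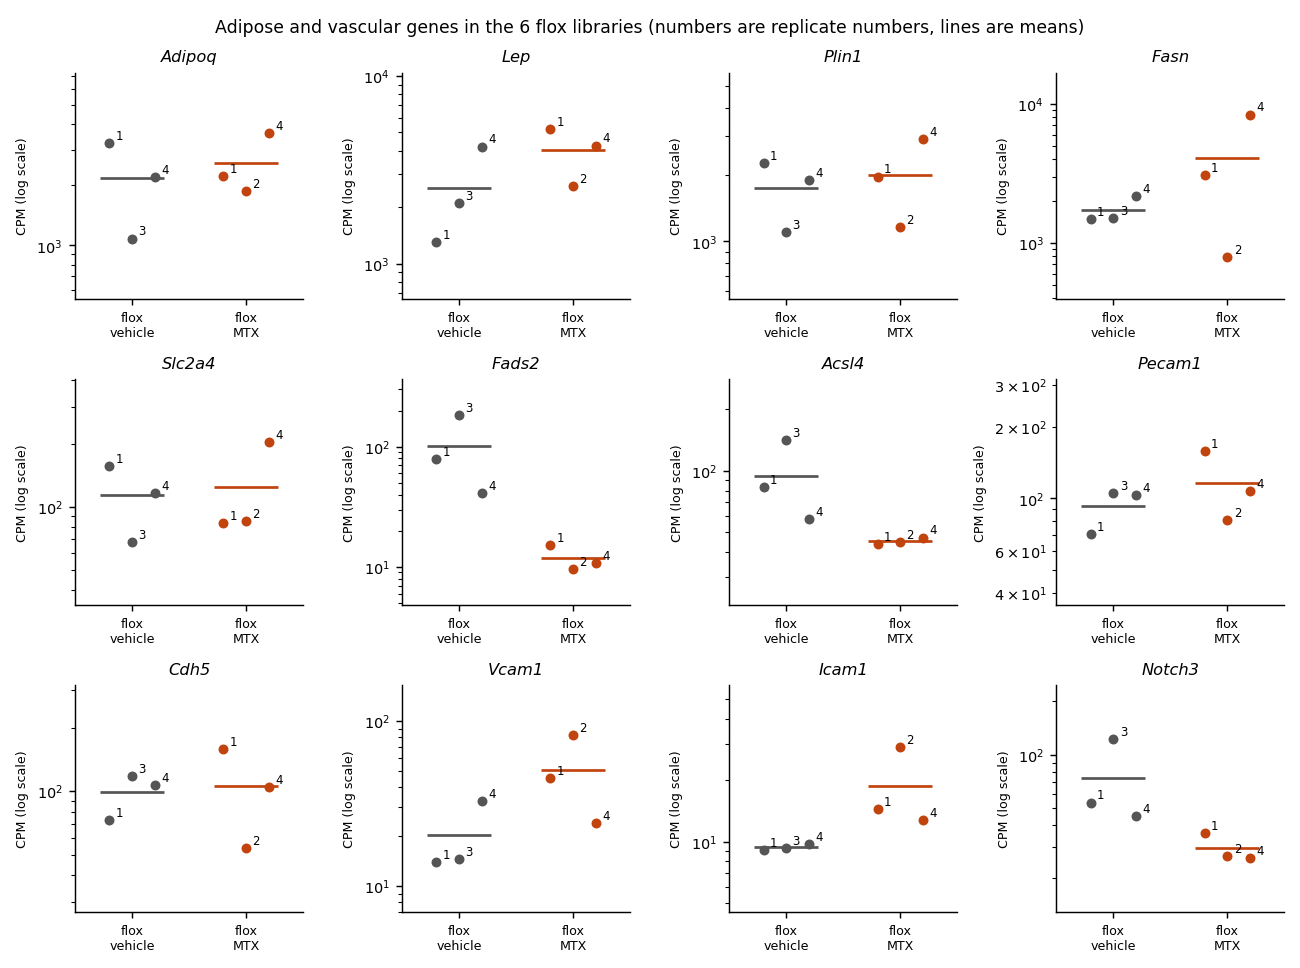
CPM (log scale) of 7 adipose genes and 5 vascular genes in the 6 flox libraries, with a point for each library, its replicate number, and a line at the group mean. Adipoq, Lep, Plin1, Fasn, Slc2a4, Pecam1 and Cdh5 overlap between vehicle and MTX, whereas Fads2, Acsl4 and Notch3 are highest in vehicle replicate 3 and Icam1 is higher in all MTX libraries.

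Immune genes made up the largest group of rises among the lists. Of 416 immune genes tested, 218 were called higher (52.4%, against 8.09% of all genes) and 7 lower, with a median log2 fold change of 1.08. In 121 of the 218 the groups did not overlap, which is 29.1% of the immune genes tested against 5.1% of all genes. Without vehicle replicate 3, 60 were called higher, without MTX replicate 2 there were 113 and without vehicle replicate 1 there were 151. With the 6 flox libraries fitted alone, 48 immune genes were called in either direction. The summed immune lists were at 49200, 41700 and 58800 CPM with vehicle and at 86900, 102000 and 59300 with MTX. MTX replicate 4 thus exceeded the highest vehicle library by little on this scale, and with the TMM factors by more (72200 against 57600 CPM). Vehicle replicate 3, with the most duct RNA, had the lowest immune sum. MTX replicate 2 was the highest MTX library in 194 of the 218 genes.

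Genes of the macrophage pool were high in MTX replicates 1 and 2 and mostly at the vehicle level in MTX replicate 4. Of 21 macrophage markers tested, 19 were called higher (90.5%, against 8.09% of all genes). But 6 of the 19 were without overlap, and 5.1% of all genes were called higher without overlap. By Mac2 staining of eWAT sections, a protein measure, the paper reports less macrophage content in flox mice given MTX. The reason for the opposite direction was not tested. Adgre1, the F4/80 antigen, was at 29, 17.3 and 33.7 CPM with vehicle and at 116, 216 and 21.4 CPM with MTX (log2 fold change 2.15 ± 0.61, adjusted p = 0.0326, and 0.132 without vehicle replicate 3). Cd68, a lysosomal glycoprotein of phagocytes, was at 40.7, 27.3 and 43.3 CPM against 183, 257 and 17.9 CPM, so MTX replicate 4 was the lowest library of the 6. Its adjusted p of 0.0616 rose above the threshold without vehicle replicate 1 (0.128), vehicle replicate 3 (0.202), MTX replicate 1 (0.121) or MTX replicate 2 (0.158). Trem2, the lipid receptor of macrophages around dying adipocytes, was at 27.2, 14.4 and 23.8 CPM against 124, 302 and 11.2 CPM, and its adjusted p of 0.0401 became 0.152 without vehicle replicate 3 and 0.129 without MTX replicate 2. Of 15 class II genes, 12 were called higher, and none was without vehicle replicate 3. H2-Aa, a chain of the class II molecule that presents antigen, was at 170, 154 and 343 CPM against 555, 899 and 256 CPM, with a call (adjusted p = 0.0444) lost without vehicle replicate 1 (0.131), vehicle replicate 3 (0.168) or MTX replicate 2 (0.127).

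Phagocytosis, Fc receptor and ITAM genes followed these markers, with 32 of 40 called higher (80%, against 8.09% of all genes). In 13 of the 32 the groups did not overlap, and 5.1% of all genes were called higher without overlap. Without vehicle replicate 3, 6 of the list were called higher, and without MTX replicate 2 there were 17. Fcgr4, a receptor for IgG on myeloid cells, was at 2.78, 0.472 and 1.52 CPM with vehicle and at 9.68, 19 and 2.19 CPM with MTX (adjusted p = 0.0262), and its call held without each library in turn. In the KO libraries Fcgr4 lay between 11.6 and 33.4 CPM, above every flox vehicle library. Complement genes were called higher in 16 of 23 cases (69.6%), and in 8 without vehicle replicate 3. C1qa, a chain of the initiator of the classical pathway that macrophages make, was at 73.9, 58.7 and 106 CPM with vehicle and at 336, 716 and 133 CPM with MTX, without overlap (adjusted p = 0.0121).

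Some genes of tissue-resident macrophages separated all 3 MTX libraries from all vehicle libraries, at a share near those of macrophage markers (6 of 21) and complement genes (9 of 23). Of 20 genes in the resident macrophage list 14 were called higher (70%, against 8.09% of all genes). Of these, 7 were without overlap (5.1% of all genes were), and 5 of the list were called higher without vehicle replicate 3. Lyve1, a hyaluronan receptor of perivascular macrophages and lymphatic vessels (ENSMUSG00000030787, chromosome 7, 110850607 to 110863239), was at 10.6, 8.69 and 24.6 CPM with vehicle and at 60, 99 and 45 CPM with MTX (log2 fold change 2.22 ± 0.39, adjusted p = 0.00594). Vsig4, a complement receptor, was at 1.17, 0.59 and 0.97 CPM against 7.46, 14.4 and 6.94 CPM, which was the strongest of these changes (log2 fold change 3.39 ± 0.42, adjusted p = 0.00331). Fcna, a lectin of resident macrophages, was at 10.8, 5.23 and 8.59 CPM against 35.2, 68.5 and 25.4 CPM. Marco, a scavenger receptor, was at 5.77, 2.05 and 4.62 CPM against 12.7, 33.6 and 16.1 CPM. These 4 calls held without each library in turn. Folr2, a folate receptor of the same cells named after its values were seen, was at 4.99, 3.3 and 10.2 CPM against 26.7, 44.4 and 7.57 CPM, overlapping in MTX replicate 4, and its adjusted p of 0.0338 became 0.135 without vehicle replicate 3.

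**Figure D4:**
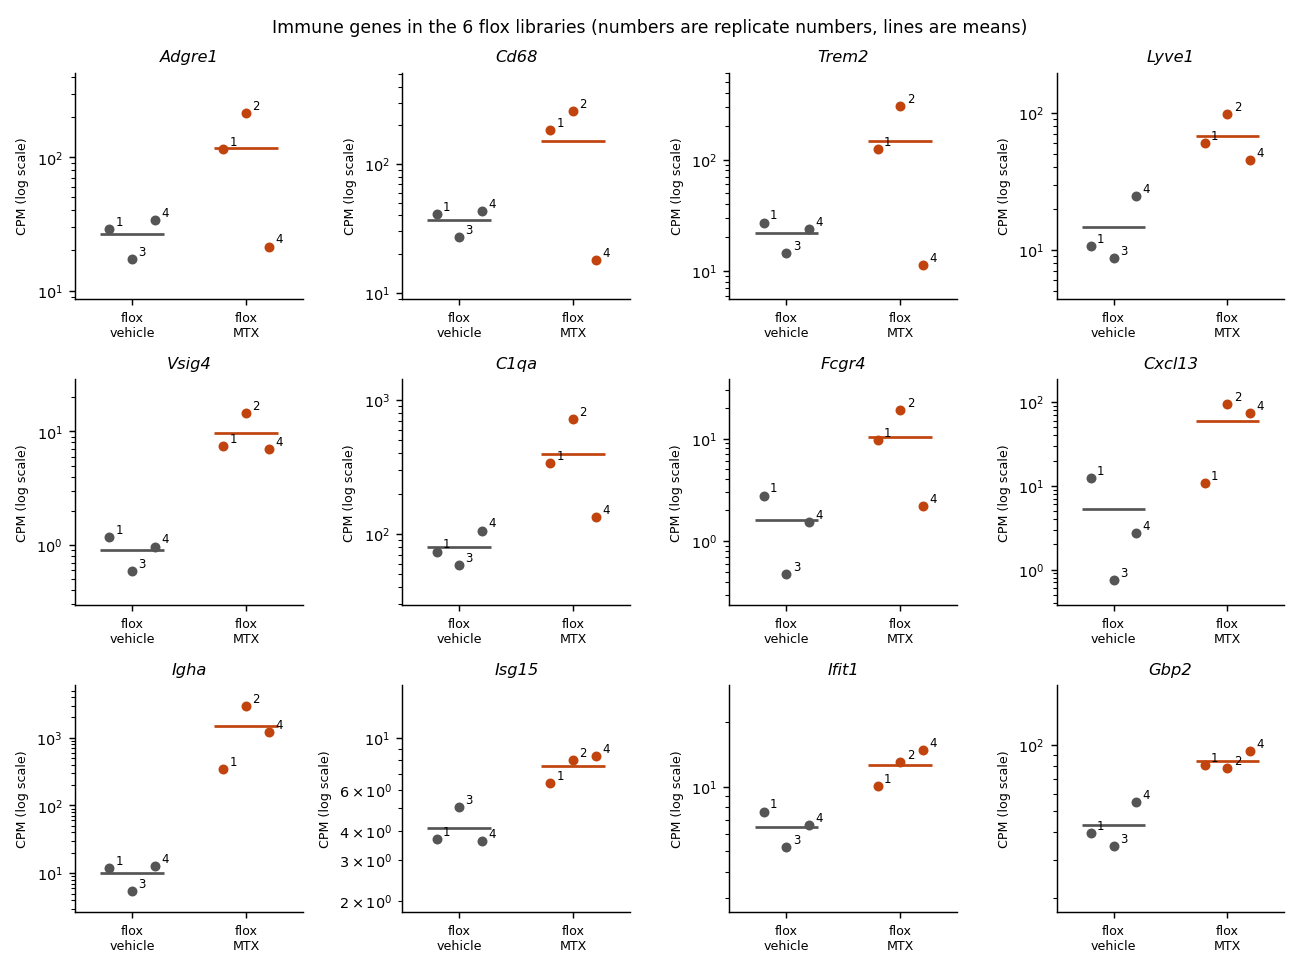
CPM (log scale) of 12 immune genes in the 6 flox libraries, with a point for each library, its replicate number, and a line at the group mean. Adgre1, Cd68, Trem2 and Fcgr4 are high in MTX replicates 1 and 2, whereas Lyve1, Vsig4, Igha, Isg15, Ifit1 and Gbp2 are higher in all 3 MTX libraries than in any vehicle library.

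Many interferon-stimulated genes rose, most of them without overlap between the groups. Of 36 tested, 22 were called higher (61.1%, against 8.09% of all genes) and none lower. In 20 of the 22 the groups did not overlap, and 5.1% of all genes were called higher without overlap. In all 22 MTX replicate 4 exceeded every vehicle library. Between 15 and 24 were called higher when each flox library was left out, with the 15 reached without vehicle replicate 3. Isg15, a ubiquitin-like modifier (ENSMUSG00000035692, chromosome 4, 156199424 to 156200818), was at 3.69, 5.07 and 3.6 CPM with vehicle and at 6.38, 8.04 and 8.38 CPM with MTX (log2 fold change 0.88 ± 0.23, adjusted p = 0.0236). Ifit1, which binds foreign RNA, was at 7.64, 5.19 and 6.6 CPM against 10.1, 13.1 and 14.9 CPM (adjusted p = 0.0243). Oas1a, a sensor of double-stranded RNA, was at 5.6, 2.6 and 4.29 CPM against 8.74, 14.5 and 7.44 CPM, and Gbp2, an interferon-induced GTPase, at 39.7, 34.7 and 54.7 CPM against 81, 78.4 and 93.5 CPM (adjusted p = 0.0214 and 0.0117). These 4 are the genes whose promoters are printed above, chosen after their values were seen.

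Oasl2 and Ifi44 had larger changes in the same list. Oasl2, a relative of the oligoadenylate synthetases, was at 16.3, 9.75 and 13.6 CPM with vehicle and at 26.6, 62.5 and 33.3 CPM with MTX (log2 fold change 1.63 ± 0.31, adjusted p = 0.00802). Ifi44 was at 2.08, 1.57 and 1.94 CPM against 3.31, 5.09 and 7.25 CPM (adjusted p = 0.00898). Ifi27l2a, an abundant member named after its values were seen, was not called, at 1060, 191 and 665 CPM with vehicle and 942, 783 and 522 CPM with MTX (adjusted p = 0.79). Summed over the list, vehicle and MTX libraries overlapped (p = 0.5, two-sided exact permutation test).

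Antibody genes showed wide rises, and most of them were highest in MTX replicate 2. The 5 largest rises without overlap, among genes seen in KO libraries, were the variable genes Ighv1-34, Igkv6-13, Ighv1-81, Igkv8-30 and Ighv5-9. Igha, the constant region of IgA (ENSMUSG00000095079, chromosome 12, 113254830 to 113260236), was at 11.8, 5.39 and 12.9 CPM with vehicle and at 347, 2970 and 1220 CPM with MTX (log2 fold change 7.24 ± 0.78, adjusted p = 0.00254). All 3 MTX libraries were far above the vehicle libraries, and the call held without each library in turn. Ighg2c, an IgG constant region, was at 78.5, 3.23 and 6.19 CPM against 23.4, 2730 and 15.9 CPM, so that MTX replicate 2 alone was high, and without that library its log2 fold change was -0.56. Its adjusted p of 0.0782 became 0.718 without MTX replicate 2, 0.219 without vehicle replicate 3 and 0.141 without vehicle replicate 4. Of 114 immunoglobulin variable genes tested, a set formed after values were seen, 66 were called higher and none lower. The share called higher among all genes was 8.09%. Without vehicle replicate 3, 29 of the set were called higher. In 99 of the 114 the highest flox level was in MTX replicate 2. Without that library 41 of 115 were called higher. Variable genes are alike in sequence, so the counting can divide reads among them.

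Lymphocyte markers were low in all libraries and again highest in MTX replicate 2. B and plasma cell genes were called higher in 19 of 33 cases (57.6%, against 8.09% of all genes). But without MTX replicate 2 there were 5, and without vehicle replicate 3 there were 3. Cd79a, a signaling chain of the B cell receptor, was at 7.2, 2.95 and 5.63 CPM with vehicle and at 5.95, 68 and 23.6 CPM with MTX. Its adjusted p of 0.0859 rose to 0.142, 0.254 and 0.128 without vehicle replicates 1, 3 and 4, and to 0.274 without MTX replicate 2. T and NK cell genes were called higher in 20 of 38 cases (52.6%). Without vehicle replicate 3 there were 5, and without MTX replicate 2 also 5. Trbc1, a constant region of the T cell receptor, was at 1.69, 0.747 and 1.11 CPM against 2.93, 10.4 and 4.56 CPM and kept its call without each library in turn (adjusted p = 0.0113). Cd3e, a signaling chain of that receptor, was at 1.65, 1.34 and 1.62 CPM against 3.5, 10.8 and 3 CPM, with an adjusted p of 0.0321 that became 0.12 without vehicle replicate 3 and 0.1 without MTX replicate 2.

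Among secreted inflammatory factors the levels varied widely and the rises were again led by MTX replicate 2. Inflammatory cytokine genes were called higher in 13 of 31 cases (41.9%, against 8.09% of all genes). Toll-like receptor and NF-kappaB genes were called higher in 15 of 34 (44.1%) and lysosome genes in 16 of 45 (35.6%). Without vehicle replicate 3 these counts were 4, 4 and 1. Chemokine and receptor genes were called higher in 18 of 44 cases (40.9%) and lower in 2, and higher in 5 without vehicle replicate 3. Ccl8, a chemokine of resident macrophages, was at 4.56, 9.13 and 20.5 CPM with vehicle and at 75.2, 116 and 17.8 CPM with MTX (adjusted p = 0.0186). Cxcl13, which draws B cells, was at 12.5, 0.747 and 2.72 CPM against 10.8, 94.2 and 74.7 CPM, with an adjusted p of 0.0451 that became 0.137 without vehicle replicate 3. Ccl28, a chemokine of mucosal epithelia, went the other way, from 7.07, 6.69 and 9.88 CPM to 0.283, 0.136 and 0.375 CPM (adjusted p = 0.00498). Tnf, the cytokine that activates endothelium, was at 0.564, 0.354 and 0.508 CPM against 0.803, 3.09 and 1.31 CPM, and its call (adjusted p = 0.0394) was lost without vehicle replicate 3 (0.147) or MTX replicate 2 (0.131).

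Monocyte and neutrophil genes were called higher in 10 of 22 cases (45.5%, against 8.09% of all genes) and lower in 2. Without vehicle replicate 3, 2 were called higher. The list summed to 3570, 4110 and 5500 CPM with vehicle and to 15800, 6890 and 2870 CPM with MTX. MTX replicate 1 was thus the highest library and MTX replicate 4 the lowest. S100a8, a calcium-binding protein of neutrophils and monocytes, was at 2.6, 9.56 and 13.6 CPM with vehicle and at 62, 27.6 and 14.9 CPM with MTX, and its adjusted p of 0.0472 became 0.109 and 0.131 without vehicle replicates 1 and 3 and 0.168 without MTX replicate 1. Members of the list did not share 1 order. The neutrophil genes S100a9 and Ngp were near 0 in every vehicle library, at 0.391, 0 and 0.0462 CPM and at 0.26, 0.0393 and 0 CPM. With MTX they were at 0.283, 31 and 9.63 CPM and at 0.0472, 10.9 and 4.5 CPM, so MTX replicates 2 and 4 were high and replicate 1 was not. Both were called higher (adjusted p = 0.0148 and 0.0213). Ltf, an iron-binding protein of neutrophil granules and of secretory epithelia, fell from 301, 312 and 200 CPM to 48.5, 9.59 and 3.25 CPM (adjusted p = 0.00901) and lay between 0.551 and 1.79 CPM in the KO libraries. Mast cell genes were called in 0 of 12 cases by edgeR, and their sum was 47.5, 43 and 47.3 CPM with vehicle and 54.6, 73.7 and 24.9 with MTX.

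Of 41 genes of endothelial identity, 1 was called higher without vehicle replicate 3. In the full fit 7 were called higher (17.1%, against 8.09% of all genes) and none lower. The junction genes that define endothelium were not among them. Over the vascular lists 22 of 132 genes were called higher (16.7%, against 8.09%) and 9 lower (6.82%, against 16.1%), and without vehicle replicate 3 the counts were 5 and 3. Pecam1, an adhesion molecule of endothelial junctions, was at 71, 105 and 103 CPM with vehicle and at 159, 81.1 and 107 CPM with MTX (log2 fold change 0.31 ± 0.27, adjusted p = 0.428). Cdh5, the junctional cadherin of endothelium, was at 73.3, 118 and 107 CPM against 158, 53.9 and 105 CPM, and Nos3, its nitric oxide synthase, at 63.5, 51.7 and 85.4 CPM against 96.1, 20 and 92.1 CPM. MTX replicate 1 was the highest and MTX replicate 2 the lowest of the 3 for each of these genes. The sign of the change of Cdh5 and Nos3 turned to negative with library size as the only scaling.

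Genes of endothelial activation and leukocyte adhesion were called higher in 9 of 24 cases (37.5%, against 8.09% of all genes) and lower in none. Without vehicle replicate 3, 1 was called higher. Vcam1, which binds monocytes and lymphocytes to activated endothelium, was at 14, 14.5 and 32.9 CPM with vehicle and at 45.3, 82.2 and 24.2 CPM with MTX (log2 fold change 1.31 ± 0.41, adjusted p = 0.0465). MTX replicate 4 lay inside the vehicle range, and the call was lost without vehicle replicate 1 (0.139), vehicle replicate 3 (0.175) or MTX replicate 2 (0.142). Icam1, the ligand of leukocyte integrins, was at 9.07, 9.28 and 9.74 CPM against 14.5, 29.1 and 12.8 CPM, without overlap. Its adjusted p of 0.0451 became 0.109, 0.134 and 0.127 without those same libraries. Selp, the selectin of endothelium and platelets, was at 5.81, 8.57 and 3.6 CPM against 4.39, 3.32 and 2.31 CPM and was not called (adjusted p = 0.143). The other genes called in this list include Itgb2, Itga4, Itgal and Itgb7, which are integrin chains of leukocytes. For Vcam1 the paper reports the other direction, a lower mRNA level by qPCR in eWAT of flox mice given MTX, with more mice per group than libraries here. The reason for the difference was not tested.

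The flow-responsive transcription factors Klf2 and Klf4 were called higher. Klf2 was at 29.8, 24.8 and 40.1 CPM with vehicle and at 43.7, 110 and 61.4 CPM with MTX, and Klf4 at 41.4, 34.4 and 47.3 CPM against 74.4, 92.4 and 48 CPM. The groups did not overlap for either, and both lost their calls (adjusted p = 0.0331 and 0.0248) without vehicle replicate 3 (0.134 and 0.108). Vegfc, the growth factor of lymphatic vessels, was at 5.29, 4.96 and 6.46 CPM against 14.5, 9.36 and 10.9 CPM and held without each library in turn (adjusted p = 0.0119). Vegfa, the main angiogenic factor, overlapped at 215, 123 and 158 CPM against 81.4, 108 and 212 CPM (adjusted p = 0.531).

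Of the 9 vascular genes called lower, 5 had the order of the duct genes among the vehicle libraries, against 63.3% of all genes called lower. Notch1, a receptor in arterial fate and in many epithelia, was at 61.3, 105 and 56.4 CPM with vehicle and at 31.4, 31.4 and 35.8 CPM with MTX (adjusted p = 0.00813). Pgf, placental growth factor, was at 14, 27.1 and 8.17 CPM against 6.28, 3.73 and 3.19 CPM (adjusted p = 0.0157). Notch3, a receptor of mural cells, was at 53.5, 123 and 44.6 CPM against 36, 26.6 and 25.8 CPM, and its adjusted p of 0.0265 became 0.102 without vehicle replicate 3. Cnn1, a smooth muscle calponin, was at 5.6, 12.6 and 6.83 CPM against 2.88, 1.36 and 0.75 CPM, with 0.0288 becoming 0.116 without the same library. The duct wall also holds smooth muscle, and its part in these values was not tested.

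Most genes of mesothelium, the cell layer that covers the fat pad, rose with MTX. Of 14 markers tested, 10 were called higher (71.4%, against 8.09% of all genes) and 9 of these without overlap (5.1% of all genes). Without vehicle replicate 3, 7 were called higher. The keratins Krt8, Krt14 and Krt18 of the same list were called lower. Msln, the membrane protein mesothelin, was at 16.3, 18.1 and 34.4 CPM with vehicle and at 38.9, 124 and 73.2 CPM with MTX (adjusted p = 0.0186). Upk3b, a uroplakin of mesothelium, was at 33, 24.6 and 49.9 CPM against 93.5, 159 and 149 CPM (adjusted p = 0.00656), and Muc16, a surface mucin, at 5.99, 2.08 and 6 CPM against 9.68, 26.8 and 21.9 CPM (adjusted p = 0.0167). The 3 calls held without each library in turn. Among fibroblast and progenitor markers 13 of 24 were called higher (54.2%) and 1 lower, but 1 higher without vehicle replicate 3. Col1a1, a chain of type I collagen, was at 330, 288 and 517 CPM against 1080, 1260 and 462 CPM, with MTX replicate 4 inside the vehicle range. Its adjusted p of 0.0417 became 0.117 and 0.157 without vehicle replicates 1 and 3 and 0.1 without MTX replicate 2.

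Of 24 matrix proteases and inhibitors tested, 7 were called higher (29.2%, against 8.09% of all genes) and 1, Mmp7, lower. In 23 the fold change was above 0. Without vehicle replicate 3, 2 were called higher. Mmp3, a stromelysin, was at 0.911, 0.826 and 1.29 CPM with vehicle and at 10.8, 15.9 and 1.5 CPM with MTX (log2 fold change 3.23 ± 0.67, adjusted p = 0.0104). Mmp7, a metalloprotease of glandular epithelium, was at 47.9, 22.1 and 38.1 CPM against 0.283, 0 and 0.0625 CPM (adjusted p = 0.00434). MTX replicate 4 just exceeded the vehicle range for Mmp3, and both calls held without each library in turn.

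Genes on the pathway of the drug were called at shares near those of all genes. Of 50 folate and adenosine genes tested, 4 were called higher (8%, against 8.09% of all genes) and 10 lower (20%, against 16.1%), and all 10 had the vehicle order 3, 1, 4, which 63.3% of all genes called lower had. Without vehicle replicate 3 the counts were 2 and 6. Mthfd1l and Mthfd2, mitochondrial enzymes of the folate cycle, were at 60.2, 134 and 21.4 CPM and at 78.5, 168 and 38.2 CPM with vehicle. With MTX they were at 10.5, 8.59 and 3.31 CPM and at 28, 14.5 and 14 CPM (adjusted p = 0.00626 and 0.00898). Nt5e, the ectonucleotidase CD73 that makes extracellular adenosine, was at 41.5, 66 and 22.5 CPM against 8.31, 6.04 and 4.06 CPM (adjusted p = 0.00551), and Enpp1, which cleaves extracellular ATP, at 62.2, 144 and 21.8 CPM against 12, 15.2 and 3.31 CPM (adjusted p = 0.0149). In the KO libraries Nt5e lay between 2.31 and 8.34 CPM, at the level of the flox MTX libraries.

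Tyms, thymidylate synthase, was at 4.95, 5.03 and 7.39 CPM with vehicle and at 12.1, 11 and 8.75 CPM with MTX, without overlap and with a call that held without each library in turn (adjusted p = 0.0187). Mki67, a marker of dividing cells, was at 7.33, 14.6 and 26.9 CPM against 38.5, 46.1 and 30.9 CPM, and its adjusted p of 0.0473 became 0.158 without vehicle replicate 3. No call was made for the adenosine receptors Adora1, Adora2a, Adora2b or Adora3, whose log2 fold changes were 0.32 ± 0.45, 0.46 ± 0.25, 0.6 ± 0.42 and -0.31 ± 0.43. Adora1 was the most abundant by counts, at 111, 119 and 188 CPM against 251, 89.3 and 182 CPM, while Adora3 stayed below 0.56 CPM in every flox library.

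In KO mice the same treatment gave no call by edgeR, with 1491 genes at an unadjusted p below 0.05, a smallest adjusted p of 0.293, and 281 genes called by DESeq2. The difference between the flox and the KO response was called for 185 genes (0.989% of those tested), in 168 of which the flox response was the lower. Of these 185, 28 were duct and germ cell genes, 25 of them from the spermatid list, where the median log2 fold change was -5.41 in flox and 0.22 in KO mice. KO libraries of either treatment held spermatid sums of 32.2 to 68.1 CPM, at the level of flox MTX libraries. The motile cilia list had a median of -4.23 in flox mice and -2.12 in KO mice, where none of its genes was called by edgeR and the sums overlapped (132 to 236 CPM with vehicle, 98.8 to 140 CPM with MTX), and 1 of its 36 genes was called for the difference. Immune lists had medians of 1.08 and 0.33, with the difference called for 5 of 416 genes, and adipose lists of 0.31 and -0.09 with 2 of 239. The count of 185 moved between 5 and 1371 when each of the 12 libraries was left out, with the fewest without KO vehicle replicate 2 and the most without flox vehicle replicate 4.

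**Figure D5:**
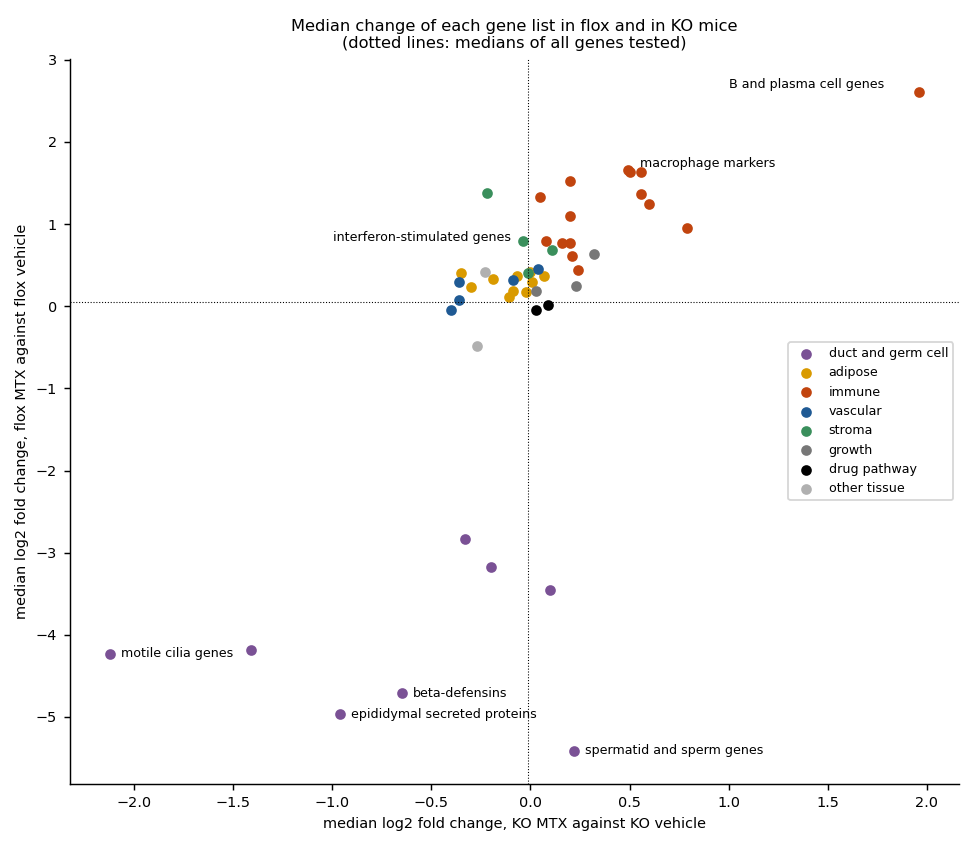
Median log2 fold change of each of 49 gene lists for MTX against vehicle, in KO mice (horizontal) and in flox mice (vertical), with a point per list coloured by class and dotted lines at the medians of all genes. Duct and germ cell lists lie far below 0 in flox mice, and motile cilia genes are the list with the lowest median in KO mice.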

How the data were processed

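RNA of eWAT was sequenced by the authors. Per the labels the molecule was polyA RNA, whereas the methods give ribodepletion, and the stated read lengths differ too. Which applies was not settled here. The submitters' processing notes name Trimmomatic 0.36, STAR 2.5.2b and featureCounts of Subread 1.5.2, on GRCm38. The deposited values are whole read counts per Ensembl gene (49315 genes), with no normalization. Strand setting and treatment of multiply mapped reads are not given in the sources used here, so antisense and overlapping genes and close paralogs are uncertain.

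Here, edgeR 4.0.16 (R 4.3.3) was run on all 12 libraries with TMM factors, filterByExpr by group and 1 coefficient per group (glmQLFit, quasi-likelihood F-test, Benjamini-Hochberg over 18702 genes). Lists (49, with 1372 of 1373 entries matched) and alternatives were chosen with earlier results of these data known. Named genes are, for each list, the 3 called genes with the largest change at a mean of at least 1 CPM, the 5 largest non-overlapping changes in each direction among genes with over 3 counts in a KO library, and a fixed set of markers. Values had been seen when Isg15, Ifit1, Oas1a, Gbp2, Ifi27l2a, Tppp3, Folr2 and the integrin chains were picked. The test was tried on simulated counts for 18305 genes, 200 of them altered 4-fold. There edgeR recovered 170 with 11 false calls, DESeq2 1.42.0 recovered 189 with 78. Each simulated gene had the same mean in all groups unless altered, with no outlying library and no tissue missing from a group. The false-call counts therefore do not carry over to the flox libraries. Libraries of a group differed by more than sampling noise (lowest chi-square/df 14.1 in KO pairs and 88.7 in flox pairs). Promoters came from RefSeq (GRCm38.p6) and coordinates from GENCODE M21.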

Additional observations from a re-analysis of the deposited data

Results flagged for a closer look

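The response to MTX differed between flox and KO mice, by the test of the difference itself, for 12 of the genes named above. No group has enough libraries for a test of single outlying samples. The differences below are flox minus KO on the log2 scale, and those of genes near 0 counts depend on the prior count of the fit. For germ cell genes the difference was -10.02 for Prm1 (adjusted p = 0.0135), -10.51 for Prm2 (0.0585), -11.39 for Tnp1 (0.0262), -9.85 for Tnp2 (0.0419), -11.56 for Sycp1 (0.0669) and -15.24 for Dmrtb1 (0.089), all from edgeR. Each was higher in every flox vehicle library than in any other library, although the KO MTX replicate 4 library held 4.15 CPM of Prm2 and 1.09 CPM of Prm1. Fads2 differed by -3.10 (adjusted p = 0.083), Acsl4 by -1.55 (0.0983) and Mthfd1l by -3.59 (0.097). Among immune genes Lyve1 differed by 2.43 (adjusted p = 0.097), Vsig4 by 2.64 (0.0847) and Igha by 4.41 (0.0836). With the replicate number as a block, 0 of the genes tested were called for this difference.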

How the results depend on the processing

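Of 82 called genes with values above, 40 kept their call under every alternative, 56 without each library in turn, 57 without vehicle replicate 3 and 72 without MTX replicate 2. The direction turned for 28 of 2140 values of named genes, and Ighg2c was the 1 called gene among them. The cause of these shifts was not tested.

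The flox comparison called 4528 genes, 1513 higher and 3015 lower. With at least 10 counts in every library, which removes genes absent from a group, it called 2198 (952 higher, 1246 lower), with 24 duct and germ cell genes against 182 and a flox against KO difference for 1 gene against 185. With the flox libraries alone it called 2167 (267 higher, 1900 lower), with 7 adipose genes against 19, 48 immune against 225 and 10 vascular against 31. With library size as the only scaling 766 were higher. At a log2 fold change of at least 1.5 it called 2791 (585 higher), with 6 adipose, 135 immune and 12 vascular genes. In KO mice DESeq2 called 281 genes, the KO libraries alone 3 and no filter 20, against 0. The difference was called for 1248 genes by DESeq2, 472 with no filter and 43 with duct and KO-low genes removed. Of genes with at most 10 counts in each KO library 777 were lower, against 307 at 3 counts.

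The replicate numbers were not taken to pair the mice. Same-numbered libraries had residual correlations of -0.273 to 0.254 in 12 pairs (median 0.0353, against 0.0112 in 42 other pairs). With the replicate number as a block, 2771 genes were called (572 higher), with 10 adipose, 83 immune and 13 vascular genes, and the difference for 0. Under this block the log2 fold change turned for Adipoq (-0.01), Retn (-0.12), Plin1 (-0.0015), Slc2a4 (-0.18), Cdh5 (-0.05) and Nos3 (-0.23). With library size only it turned for Plin1 (-0.04), Slc2a4 (-0.10), Pparg (-0.02), Cdh5 (-0.15) and Nos3 (-0.20).

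Leaving out each library in turn gave 2219 to 5995 genes called in flox mice, 387 to 2198 higher and 1832 to 3797 lower, 0 to 215 in KO mice and 5 to 1371 for the difference. By class it gave 128 to 198 duct and germ cell, 9 to 57 adipose, 64 to 255 immune and 8 to 44 vascular genes. The log2 ratios of the summed shares lay between -5.13 and -3.39 for duct and germ cell, -0.04 and 0.42 for adipose, 0.55 and 0.92 for immune, and 0.02 and 0.34 for vascular lists. Log2 fold changes that turned ran from -0.97 to 8.47 for Gpx5, -0.08 to 0.65 for Adipoq, -0.62 to 0.77 for Retn, -0.15 to 0.48 for Plin1, -0.42 to 0.44 for Slc2a4, -0.15 to 0.47 for Pparg, -0.56 to 7.62 for Ighg2c, -0.20 to 0.81 for Ifi27l2a, -0.33 to 0.42 for Cdh5, -0.27 to 0.50 for Nos3 and -0.05 to 0.65 for Adora1. Genes with at most 3 counts in every library of a group have no fold that the depth supports beyond the bounds given.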
